A study of Mus musculus with 24 samples.

Results

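Gene expression in the mouse digit tip was compared between 21 and 14 days after a distal amputation. The comparison uses 8 of the 24 libraries of the series, 4 from each day, and all 15055 genes of its table. Each library came from hind limb digit tips of C57BL/6 mice, an inbred laboratory strain, aged 10 to 12 weeks, and holds epidermis, dermis, marrow, cartilage and bone together. The labels give no genotype, transgene or agent beyond the amputation, which both groups share. The other libraries come from 12 days after the distal amputation and from 12, 14 and 21 days after a proximal one, with 4 in each group. No label ties a library to its own animal. The p-values therefore reflect how far these particular libraries scatter, and part of that scatter may be technical. They are also likely too small, as set out where the processing is described.

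The mouse digit tip is known to regrow after an amputation through its distal end, whereas a more proximal amputation heals without regrowth. In the regrowing digit, osteoclasts first erode the stump bone, the wound epidermis closes over it, and a blastema of proliferating mesenchymal cells forms beneath. Osteoblasts then lay down new bone within the blastema by direct ossification, while the epidermis and nail organ form again.

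Values are the deposited gene values, which are whole numbers that had been normalised by a step no label or header records, so sequencing depth is unknown. Summed over all genes, the 8 libraries held 16133162 to 19351055. Changes are given as log2 differences of value + 1, 21 minus 14 days, with the standard error of the limma fit, and a gene was called at a Benjamini-Hochberg adjusted p under 0.05 over all 15055 genes. Of the labelled tissues, the defining genes of bone (Bglap, Ibsp, Sp7, Dmp1), osteoclasts (Acp5, Ctsk), cartilage (Acan, at 729 or more, and Col2a1, at 16 to 218), red cells (Hbb-bs) and epidermis (Krt5, Krt14, Krt10) were present in all 8 libraries. The granulocyte genes Mpo, Elane and Ngp, the osteocyte gene Mepe, the osteoclast gene Calcr, the muscle genes Myh4 and Ckm and the fat cell genes Adipoq, Plin1 and Cidec have no row in the table and were not analysed here. Acta1, a skeletal muscle gene, was at 4 to 19.

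Between 14 and 21 days, 1996 genes (13.3%) were called higher and 3238 (21.5%) lower, 34.8% of the genes in all. With median-ratio factors in place of the values as deposited, 2742 were higher and 2758 lower, so that 49.9% rather than 38.1% of the calls were rises. With table totals the split was 1365 to 3258, or 29.5% rises. The larger changes were falls: 917 called genes fell by more than 2-fold and 241 rose by as much, and 88 fell and 13 rose by more than 4-fold. The 4 values of one day all lay above the 4 of the other for 1735 genes (11.5%) that were higher at 21 days and for 2935 (19.5%) that were lower. The first principal component of the 8 libraries held 55.4% of their variance and parted the days without overlap. Across the lists of marker genes described here, most measured members of the bone, connective tissue, vessel, macrophage and mitosis lists were called lower at 21 days, and most of the barrier lipid, epidermis and immediate early lists higher. Because the tissue is a mixture, fewer cells of a type and less RNA per cell cannot be told apart.

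**Figure D1:**
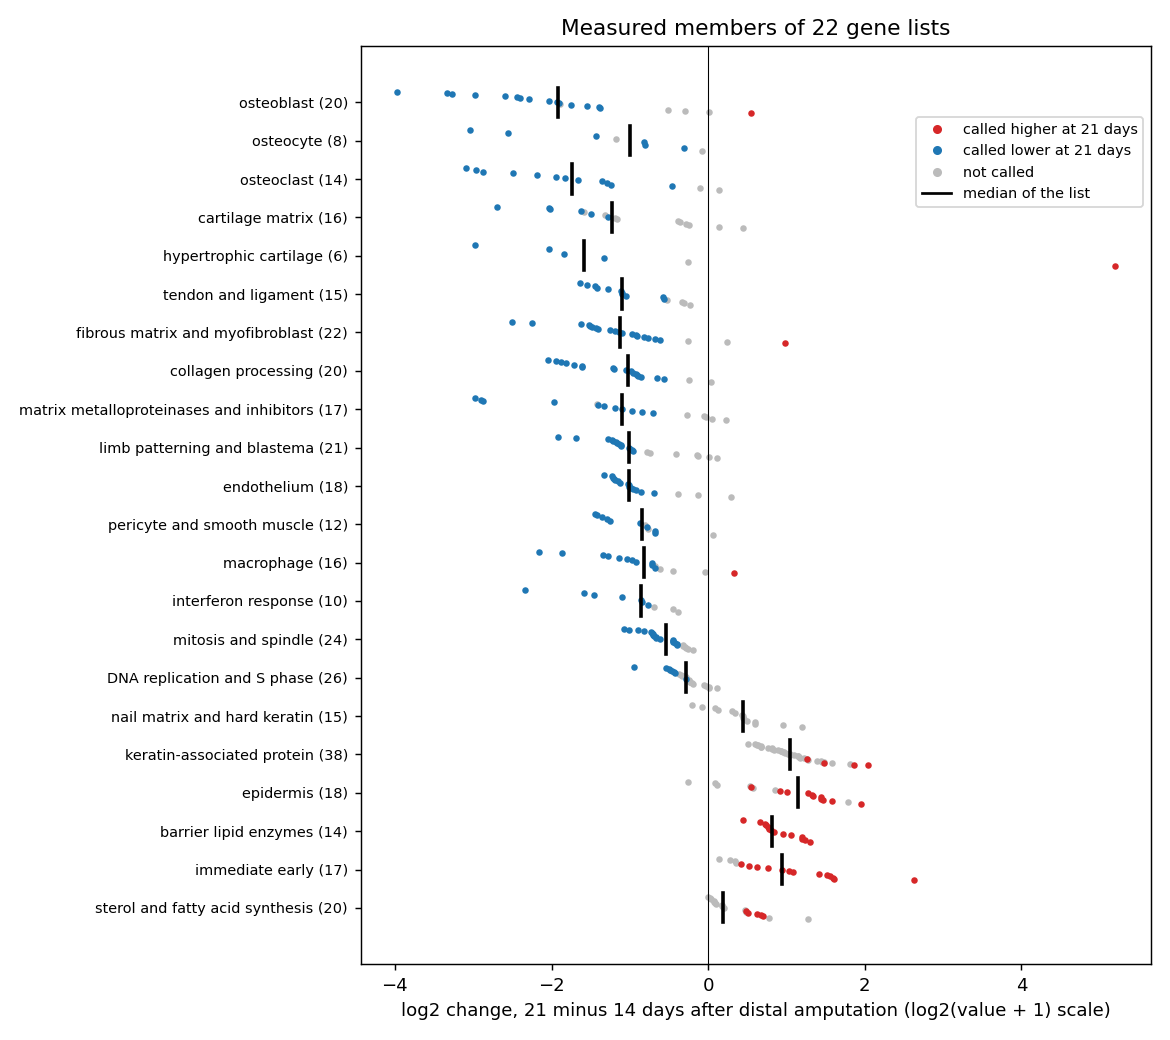
Each point is a measured member of a gene list (number of members in brackets), placed on the x axis by its log2 change between 14 and 21 days after distal amputation. Red and blue points were called higher and lower, grey points were not called, and the black bar is the median of the list. The medians of the osteoblast, osteoclast and matrix lists lie left of 0 and every barrier lipid and immediate early gene lies right of it, while Col10a1 stands alone at 5.19 in the hypertrophic cartilage list.

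Genes of bone-forming cells fell. Of 20 measured osteoblast genes, 15 were lower and 1 was higher at 21 days, with a median of -1.92 against -0.04 over all genes. Ibsp, which encodes the bone matrix protein bone sialoprotein (chromosome 5, 104299171 to 104311469, GRCm38), was the largest fall among genes with a mean value of at least 100 and no overlap between the days. Its values were 6894, 21381, 15277 and 15421 at 14 days and 1198, 857, 470 and 1163 at 21 days. The lowest library at 14 days was thus far above the highest at 21 days, and the fall was 15.8-fold (log2 -3.98 ± 0.55, adjusted p = 1.22e-05). Sp7, the transcription factor osterix that osteoblasts need in order to form, went from 502, 980, 870 and 842 to 151, 103, 50 and 116 (-2.98 ± 0.48, adjusted p = 5.53e-05). Runx2, the regulator that acts before Sp7 in the same lineage, fell less, by 1.55 ± 0.25. Alpl, the phosphatase that permits mineral to form, fell by 2.44 ± 0.45.

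Osteocalcin, the late osteoblast product encoded by Bglap (chromosome 3, 88383501 to 88384464), was at 1740, 1432, 530 and 598 at 14 days and at 88, 311, 24 and 133 at 21 days. The days did not overlap (-3.26 ± 0.85, adjusted p = 0.00461), although values spread widely within each. Bglap and its neighbour Bglap2, which fell by 2.28 ± 0.66, are near copies, so reads may be divided between them. The bone collagen chains were among the most abundant transcripts: Col1a1 went from 243732, 497036, 388656 and 308280 to 113996, 93398, 79031 and 80848 (-1.93 ± 0.30). Ifitm5, a small membrane protein of mineralising osteoblasts, fell by 3.33 ± 0.67, and Pth1r, the receptor for parathyroid hormone, by 2.03 ± 0.32. The member called higher was Dlx3, a homeobox gene that epidermis, nail and hair also use (0.55 ± 0.18). That call ended without replicate 3 of 14 days (0.45, adjusted p = 0.0838) or replicate 4 of 21 days (0.38, adjusted p = 0.116). Dlx5 (0.01), Smpd3 (-0.29), Phospho1 (-0.51) and Panx3 (-1.89) were not called. Panx3 was called without replicate 1 of 14 days (-2.69, adjusted p = 0.0409).

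The bases upstream of the Bglap start are shown because Bglap is the classic target of Runx2. The line gives the 150 bases before the RefSeq start (GRCm38.p6, chr3:88384467-88384616, minus strand), with matches on either strand to the Runx core TGTGGT in capitals. A match to CCAAT is in capitals as well.
Bglap: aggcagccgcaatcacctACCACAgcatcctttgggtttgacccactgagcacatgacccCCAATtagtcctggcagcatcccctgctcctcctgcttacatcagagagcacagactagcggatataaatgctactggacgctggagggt
Among the 14 RefSeq promoters that matched 10 of the 15 osteoblast genes called lower, 3 (21.4%) held TGTGGT on either strand within the 250 bases before the start. Over all 13726 promoters of genes in the table the share was 10.7%. Among other lists called lower it was 2 of 5 (40.0%) for DNA replication, 2 of 15 (13.3%) for mitosis and 0 of 9 for osteoclast genes. With so few promoters, these shares do not set the osteoblast genes apart. A match is only a run of letters, and binding was not measured.

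Osteocyte genes, of cells buried in finished bone, were lower for 6 of 8 measured members and higher for 0, and all 8 changes were negative. Dmp1, an acidic matrix protein of osteocytes, went from 356, 913, 650 and 414 to 67, 171, 27 and 58 (-3.04 ± 0.71, adjusted p = 0.00193). Phex, which regulates phosphate from the osteocyte surface, was at 468 to 671 at 14 days and at 67 to 137 at 21 days (-2.55 ± 0.55, adjusted p = 0.00106). Sost, the Wnt inhibitor of mature osteocytes, was low on both days, at 44, 31, 17 and 15 and then at 16, 17, 3 and 12. Its days overlapped and it was not called (-1.18 ± 0.61, adjusted p = 0.14).

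Osteoclast genes fell with them: 12 of 14 measured members were lower and 0 higher, with a median of -1.74. The fusion genes of the lineage fell the most. Ocstamp, needed for precursors to fuse, was at 102, 175, 141 and 293 at 14 days and at 10, 22, 12 and 61 at 21 days, without overlap (-2.96 ± 0.62, adjusted p = 0.000731). Dcstamp, its partner in fusion, fell by 3.09 ± 0.67. The matrix proteases that the mature cell secretes fell as well: Mmp9 by 2.87 ± 0.63 and Ctsk by 1.94 ± 0.44. Ctsk, the collagen-degrading cathepsin, was at 4797, 11008, 6446 and 8660 and then at 1878, 1469, 1288 and 3815. Acp5, the acid phosphatase used to stain osteoclasts, was at 1251, 3724, 2669 and 3422 and then at 527, 648, 874 and 1443. Its days overlapped through replicate 1 of 14 days, and the fall was called (-1.66 ± 0.48, adjusted p = 0.0104). Car2 (0.14) and Clcn7 (-0.11), which acidify the resorption pit and work in many other cells, were not called.

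Of 6 genes that steer osteoclasts, 4 were lower and 0 higher, or 1 higher without replicate 4 of 14 days or replicate 1 of 21 days. Csf1, the survival factor of the lineage, was at 377 to 576 and then at 151 to 213 (-1.18 ± 0.16, adjusted p = 6.48e-06). Both the osteoclast-inducing ligand Tnfsf11 (-1.26 ± 0.42, adjusted p = 0.0234) and its decoy receptor Tnfrsf11b (-1.10 ± 0.24) fell. The call of Tnfsf11 ended without replicate 4 of 14 days (-0.85, adjusted p = 0.113) or replicate 3 of 21 days (-1.06, adjusted p = 0.0764), and without either of these libraries 2 of the 6 genes were lower.

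Col10a1 went the other way and was the largest rise of all (chromosome 10, 34389981 to 34397085, plus strand). It encodes the collagen X chain, best known as the product of hypertrophic chondrocytes. Its values were 148, 67, 96 and 93 at 14 days and 4762, 2091, 6507 and 2526 at 21 days. Every library at 21 days exceeded every library at 14 days more than 10-fold, and the fitted rise was 36.5-fold (5.19 ± 0.65, adjusted p = 3.55e-06). The other members of its list did not rise: Mmp13, a collagenase of hypertrophic chondrocytes and osteoblasts, fell from 1689, 2248, 1626 and 4241 to 323, 210, 168 and 586 (-2.98 ± 0.44), and Mef2c, Runx3 and Pth1r also fell. Col10a1 lies on the strand opposite to Nt5dc1, whose change was 0.22 (adjusted p = 0.0788) and whose values stayed between 390 and 581. The sources used here do not tell if reads were counted by strand. Whether reads of Nt5dc1 entered the Col10a1 values was not tested.

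Cartilage matrix genes did not rise with Col10a1. Of 16 measured, 6 (37.5%) were lower and 0 higher, against 21.5% and 13.3% over all genes, with a median of -1.23. The count higher was 1 under median-ratio factors and without replicate 3 of 14 days or replicate 1 of 21 days. Acan, the large cartilage proteoglycan, was at 1709, 4460, 4439 and 3251 and then at 2302, 729, 996 and 734, with replicate 1 of 21 days inside the range of 14 days (-1.62 ± 0.43, adjusted p = 0.00508). Col2a1, the main cartilage collagen, was at 218, 38, 57 and 127 and then at 16, 32, 69 and 59, so the days overlapped and it was not called (-1.19 ± 0.74, adjusted p = 0.227). The fibril collagens Col11a1 (-2.02 ± 0.27) and Col11a2 (-2.69 ± 0.58), which bone and other matrices also use, fell without overlap. Sox9, the regulator of cartilage cells, changed by 0.14 and was not called. Matn3, a cartilage matrix protein, was called lower (-2.03 ± 0.74, adjusted p = 0.0366), but the call held without only 1 of the 8 libraries, replicate 1 of 21 days. Without each of the others in turn its adjusted p was 0.0527 to 0.113, and with the replicate number as a block it was 0.0562.

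**Figure D2:**
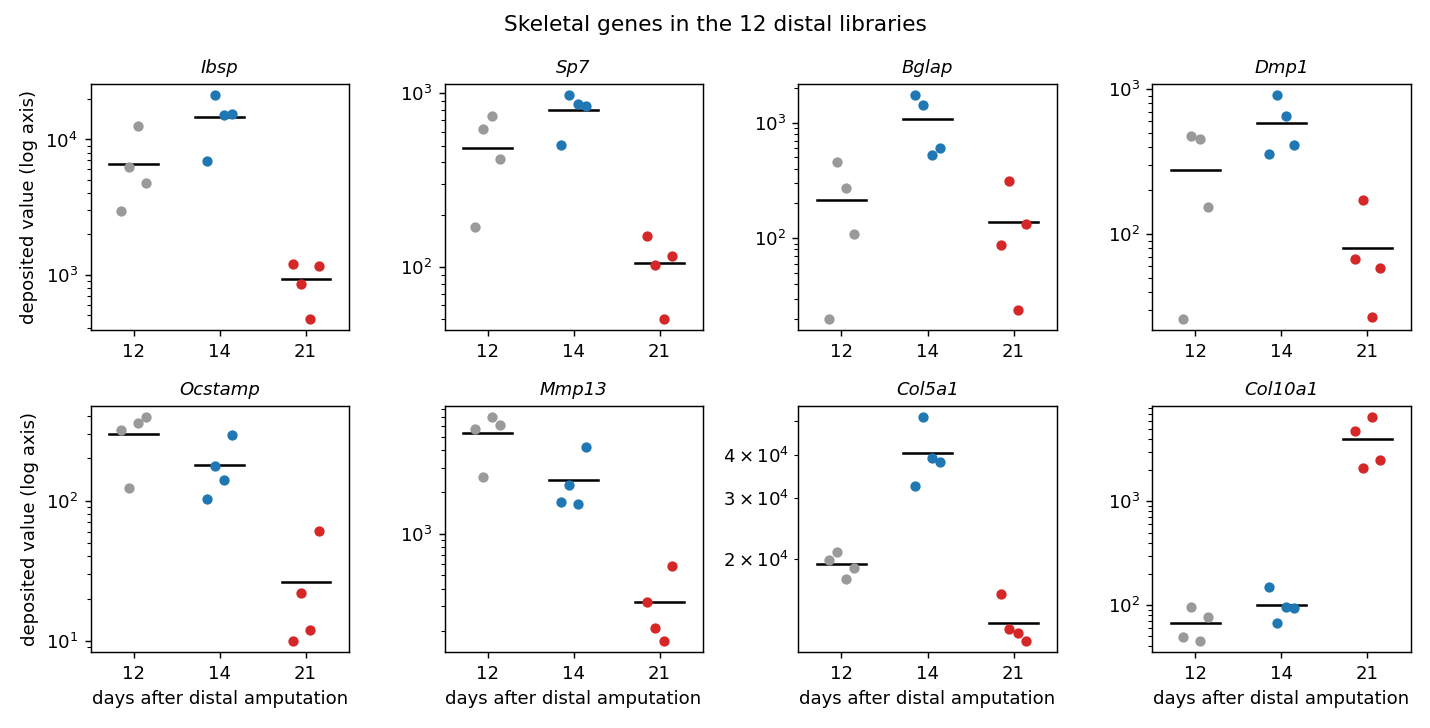
Deposited values on a log axis of 8 skeletal genes in the 12 distal libraries, by days after amputation; points are libraries (grey 12, blue 14, red 21 days) and bars are means. Values at 21 days lie below those at 14 days in every panel except Col10a1, where they are 2091 or more against 148 or less.

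Connective tissue genes fell broadly. In the fibrous matrix and myofibroblast list, 19 of 22 members were lower and 1 higher (median -1.12). Lox, the enzyme that crosslinks collagen and elastin, was at 7057, 10173, 9434 and 8472 and then at 2053, 1720, 1800 and 1747 (-2.25 ± 0.21, adjusted p = 1.21e-07). Col5a1, a chain of the collagen V that nucleates fibrils, was at 32536, 51463, 39174 and 38127 and then at 15765, 12542, 12203 and 11543 (-1.62 ± 0.14, adjusted p = 9.33e-08). Both genes had no library near the other day's range. Adam12, a metalloprotease of activated mesenchyme, fell by 2.51 ± 0.26 and Postn, the matricellular protein periostin, by 1.51 ± 0.23. The exception was Lrrc15, a surface protein of matrix-forming mesenchyme, at 31181 to 71096 and then at 60231 to 156126 (0.98 ± 0.34, adjusted p = 0.0266). It was not called without replicate 3 of 14 days (0.76, adjusted p = 0.105), replicate 2 of 21 days (0.92, adjusted p = 0.0642) or replicate 4 of 21 days (0.76, adjusted p = 0.107).

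The machinery that folds and trims collagen fell with its substrates. Of 20 collagen processing genes, 18 were lower and 0 higher, with a median of -1.02. Pcolce, an enhancer of procollagen cleavage, was at 2543, 3432, 3243 and 2940 and then at 643, 687, 739 and 880 (-2.04 ± 0.18, adjusted p = 9.33e-08). Fkbp10, a collagen chaperone of the endoplasmic reticulum, fell by 1.87 ± 0.22. Creb3l1, a transcription factor of the secretory pathway in osteoblasts and fibroblasts, fell by 1.95 ± 0.32. Ppib (-0.25) and P3h2 (0.04) were not called.

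Of 15 tendon and ligament genes, 11 were lower and 0 higher, and all 15 changes were negative (median -1.10). Fmod, a collagen-binding proteoglycan of tendon, was at 6119 to 9330 and then at 1769 to 3035 (-1.64 ± 0.20). The adhesion-modulating matrix protein Tnc fell by 1.54 ± 0.21, and Aspn, another small proteoglycan, by 1.44 ± 0.19. Tnmd, the defining membrane protein of tendon cells, was at 214, 100, 170 and 267 and then at 138, 206, 77 and 177. Its days overlapped fully and it was not called (-0.33 ± 0.37, adjusted p = 0.528).

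Among matrix metalloproteinases and their inhibitors, 11 of 17 members were lower and 0 higher (median -1.10). Besides Mmp13 and Mmp9, the stromelysin gene Mmp3 fell from 207, 564, 273 and 390 to 64, 46, 23 and 54 (-2.90 ± 0.57, adjusted p = 0.000465). The inhibitor Timp1 fell by 1.97 ± 0.29, so inhibitor and proteases fell together. Of 8 genes of mineral and phosphate handling, 3 (37.5%) were lower and 1 (12.5%), Ank (0.39), higher, against 21.5% and 13.3% over all genes. Enpp1, which makes the mineral inhibitor pyrophosphate, was at 660 to 862 and then at 306 to 432 (-1.03 ± 0.15). Mgp, a second mineral inhibitor (-0.73 ± 0.25), was not called without replicate 1 (-0.58, adjusted p = 0.0944) or replicate 4 of 14 days (-0.69, adjusted p = 0.0574), nor with the replicate number as a block (adjusted p = 0.0546). Fam20a, a partner of the kinase that phosphorylates mineral-binding proteins (-0.49 ± 0.17), lost its call without replicate 2 or 4 of 14 days or replicate 1, 2 or 4 of 21 days (-0.40 to -0.49, adjusted p of 0.0545 to 0.11) and with median-ratio factors (-0.43, adjusted p = 0.0524).

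Genes that pattern the limb and mark the blastema were lower for 14 of 21 members and higher for 0, with a median of -1.01. Msx1, a homeobox gene known from digit tip regrowth, was at 1062, 1017, 1193 and 1134 and then at 506, 514, 522 and 646 (-1.01 ± 0.23, adjusted p = 0.00185). Its groups were tight and far apart. Hoxa11, a limb-segment Hox gene, was at 107, 104, 108 and 133 and then at 34, 33, 23 and 28 (-1.91 ± 0.24, adjusted p = 3.35e-06). Hoxa11os, an overlapping transcript of the opposite strand, fell by 1.02. Pitx1, which specifies the hind limb, fell by 1.68 ± 0.26, and the zinc finger gene Sall1 by 1.28 ± 0.31. Msx2 (0.11), Dlx5 (0.01), Dlx6 (-0.14) and En1 (-0.13), homeobox genes that limb ectoderm or nail also express, were not called.

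Vessel genes fell by close to 2-fold. Of 18 endothelial genes, 15 were lower and 0 higher (median -1.01), and of 12 pericyte and smooth muscle genes 9 were lower and 0 higher (median -0.84). Kdr, the main receptor for vascular endothelial growth factor, was at 745, 794, 565 and 828 and then at 287, 317, 198 and 385 (-1.33 ± 0.19, adjusted p = 1.27e-05). Cdh5, the endothelial cadherin, fell by 1.21 ± 0.16 and Plvap, a protein of capillary pores, by 1.22 ± 0.16. The 3 endothelial genes not called, Prox1 (-0.13), Lyve1 (0.29) and Flt4 (-0.39), are those of lymphatic vessels. Among mural cell genes, Mcam fell by 1.35 ± 0.19 (its antisense gene Gm10687 by 0.89), Kcnj8 by 1.44 ± 0.39 and Des by 1.42 ± 0.33, although Des was at 36 or less throughout.

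Macrophage genes were lower for 11 of 16 members and higher for 1, with a median of -0.82, but lower for 7 of 16 without replicate 1 of 14 days. Itgam, a myeloid integrin, was at 235, 236, 177 and 247 and then at 98, 85, 72 and 96 (-1.34 ± 0.23, adjusted p = 9.66e-05). Ccr2, the receptor of incoming monocytes, was at 300, 69, 80 and 69 and then at 37, 19, 16 and 22 (-2.16 ± 0.36). The antibody receptor gene Fcgr1 was low, at 57, 8, 15 and 15 and then at 2 to 6 (-1.87 ± 0.47). Interferon response genes were lower for 7 of 10 members and higher for 0 (median -0.85). Ifit1, an antiviral gene, was at 55, 19, 19 and 124 and then at 3, 10, 8 and 10 (-2.33 ± 0.45), and Ifit3 (-1.46 ± 0.41) and Bst2 (-1.58 ± 0.23) fell too. Replicates 1 and 4 of 14 days stood highest for both Ifit genes.

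Only 5 of 16 listed neutrophil genes had a row, and 3 of these were lower and 1, the chemokine receptor gene Cxcr2 (0.96), higher. The S100a9 values, for an alarmin that neutrophils and stressed keratinocytes make, were 1042, 9378, 1607 and 43 at 14 days and 69, 102, 35 and 35 at 21 days (-4.04 ± 1.20, adjusted p = 0.0116). S100a8, its partner, was at 688, 4546, 1044 and 90 and then at 213, 239, 90 and 56 (-2.53 ± 0.95, adjusted p = 0.0435). Replicate 2 of 14 days was far above the rest for both, and replicate 4 of 14 days lay within the range of 21 days. Without replicate 2 of 14 days S100a9 changed by -2.92 (adjusted p = 0.0614) and S100a8 by -1.66 (adjusted p = 0.188), and 1 neutrophil gene was lower. S100a8 also lost its call without replicate 1 or 3 of 14 days or replicate 3 or 4 of 21 days (-2.14 to -2.57, adjusted p of 0.0694 to 0.126). Lcn2, an iron-withholding protein of neutrophils and epithelia, was at 44, 57, 18 and 36 and then at 13, 7, 3 and 3 (-2.50 ± 0.55). Slpi, an inhibitor of neutrophil elastase, was at 479, 1380, 388 and 91 and then at 30, 55, 32 and 29 (-3.44 ± 0.60, adjusted p = 0.000139), with no overlap.

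Inflammatory mediators were mixed, with 5 of 13 lower (38.5%) and 3 higher (23.1%), against 21.5% and 13.3% over all genes. Cxcl5, a neutrophil-attracting chemokine, was at 135, 70, 12 and 132 and then at 3, 3, 3 and 5 (-3.85 ± 0.76, adjusted p = 0.000439). Ccl9, a chemokine that osteoclasts make, fell by 1.96 ± 0.45. Il1rn, which blocks the interleukin 1 receptor, rose by 1.07, and Arg1 by 1.05. The alarmin gene Il33 was called lower (-1.44 ± 0.51, adjusted p = 0.0319) but not without replicate 1 or 2 of 14 days or replicate 1, 2 or 3 of 21 days (-1.05 to -1.47, adjusted p of 0.0507 to 0.133). The count of genes lower was 3 without replicate 1 of 14 days and without replicate 1 or 3 of 21 days. Red cell genes, 6 measured, were not called (median 0.38); their summed value ran from 484 to 13260 at 14 days and from 1293 to 15955 at 21 days, a wide range on both days.

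Mitotic genes fell, by amounts that varied among them. Of 24 mitosis and spindle genes, 18 were lower and 0 higher, all 24 changes were negative, from -1.07 to -0.19, and the median was -0.53. The days did not overlap for 18 members either, but the sets differed: Cenpf was called with overlap, and Nusap1 was not called although its days did not overlap. Aurka, the kinase of the spindle poles, was at 163, 199, 233 and 193 and then at 82, 97, 92 and 100 (-1.07 ± 0.18, adjusted p = 0.000116). Plk1, a kinase that drives entry into mitosis and its steps, was at 227, 280, 253 and 240 and then at 89, 136, 149 and 128 (-1.01 ± 0.22). Cenpe, a motor of the kinetochore, fell by 0.90 ± 0.21. The lowest value at 14 days exceeded the highest at 21 days for each of these. Cdk1, the mitotic kinase itself, was at 610, 584, 552 and 482 and then at 338, 344, 340 and 439 (-0.61 ± 0.13). Mki67, the usual marker of cycling cells, was at 4749, 5412, 4314 and 4182 and then at 3093, 3684, 4556 and 4092, so its days overlapped and it was not called (-0.28 ± 0.13, adjusted p = 0.108). It passed without replicate 3 of 21 days (-0.37, adjusted p = 0.0486). The count of mitotic genes called lower was 13 with median-ratio factors, 18 with table totals and 12 to 16 with a library left out.

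The upstream sequences of 3 of the mitotic genes that fell are shown for CCAAT, which all 3 hold. Each is the 150 bases before a RefSeq start in GRCm38.p6, with matches on either strand in capitals. One motif is CCAAT, the CCAAT box. The other is TTTGAA, the core of the cell cycle homology region known from such promoters, and of the 3 only Cdk1 holds it in these bases, at 2 places. Cdk1 is at chr10:69352913-69353062, Ccnb2, a mitotic cyclin, at chr9:70421555-70421704 and Aurka at chr2:172370571-172370720, all on the minus strand.
Cdk1: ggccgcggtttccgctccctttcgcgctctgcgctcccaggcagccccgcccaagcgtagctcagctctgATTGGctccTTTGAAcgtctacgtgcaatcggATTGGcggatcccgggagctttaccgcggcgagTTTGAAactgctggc
Ccnb2: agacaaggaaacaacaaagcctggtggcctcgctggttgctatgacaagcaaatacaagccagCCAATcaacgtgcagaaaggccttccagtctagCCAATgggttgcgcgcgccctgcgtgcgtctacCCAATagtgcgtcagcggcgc
Aurka: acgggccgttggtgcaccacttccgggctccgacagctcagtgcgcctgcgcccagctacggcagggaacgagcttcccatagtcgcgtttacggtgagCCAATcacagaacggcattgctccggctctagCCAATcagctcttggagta
RefSeq promoters were found for 14 of the 18 called genes, 15 in all, and 14 of these (93.3%) held CCAAT on either strand in the 250 bases before the start, against 34.4% of the 13726 promoters of genes in the table. TTTGAA was in 6 of them (40.0%) against 10.7%, and both motifs were in 6 (40.0%) against 3.99%. These shares describe letters and not binding, and the mitotic list itself was chosen for its function.

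Of 26 DNA replication genes, 8 (30.8%) were lower and 0 higher, against 21.5% lower over all genes, with a median of -0.29. The count was 12 with table totals. It was 5 without replicate 2 of 14 days or replicate 3 of 21 days and 15 without replicate 3 of 14 days. Ccne1, the cyclin of S phase entry, was at 128, 115, 85 and 110 and then at 49, 52, 48 and 79 (-0.95 ± 0.23, adjusted p = 0.00264). Rrm2, a subunit of the enzyme that makes deoxynucleotides, was at 661 to 827 and then at 451 to 597 (-0.54 ± 0.13). Gins2, of the replicative helicase (-0.50 ± 0.15), was not called without replicate 2 of 14 days (-0.42) or replicate 3 of 21 days (-0.41), both at an adjusted p of 0.0538. Of 49 histone genes, many of them near copies, 1 (2.04%) was lower and 0 higher, against 21.5% and 13.3% over all genes (median -0.14). There were 2 lower without replicate 3 of 14 days and 2 higher without replicate 3 of 21 days.

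Most epidermal genes moved in the opposite direction. Of 18 measured, 11 were higher, 0 were lower and 7 were not called, with a median of 1.14. The days did not overlap for 5 of the 18, all higher at 21 days. Krt1, a keratin of the suprabasal cells (chromosome 15, 101845426 to 101850794), was at 26483, 29210, 31023 and 76603 and then at 101735, 135976, 195792 and 150827 (1.95 ± 0.38, adjusted p = 0.000446). Replicate 4 of 14 days stood well above its group and still below the lowest library of 21 days. Flg, the precursor of the granular layer protein filaggrin, was at 16673, 10051, 16842 and 51744 and then at 27210, 72327, 64514 and 67779. Here the days overlapped through that same library and through replicate 1 of 21 days (1.47 ± 0.36, adjusted p = 0.00328). A pseudogene inside the same locus, Rplp0-ps1, rose by 1.33. Hrnr, a relative of filaggrin, was called (1.59 ± 0.46) but not without replicate 2 of 14 days (1.21, adjusted p = 0.0536). The basal layer keratins Krt5 (-0.25) and Krt14 (0.11) were not called, at 25410 to 38966 and 87291 to 131126 at 14 days and 17477 to 30584 and 85275 to 122861 at 21 days. Lor, Flg2 and Krt2, genes of the upper layers, were not called with all libraries either. Without replicate 4 of 14 days they were called (0.93, 2.39 and 1.23, adjusted p of 0.0151 to 0.043). Casp14 was called higher, but not without replicate 2 or 3 of 14 days or replicate 2 or 4 of 21 days. Without any of these its adjusted p was 0.0573 to 0.0733.

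All 14 measured genes of the enzymes and carriers that make barrier lipids were higher at 21 days, without overlap between the days, and the median was 0.82. Elovl4, which builds the very long fatty acids of skin ceramides, was at 3622, 3527, 2784 and 3810 and then at 6838, 7543, 7801 and 10553 (1.24 ± 0.18, adjusted p = 2.42e-05). Sptlc3, a subunit of the enzyme that opens sphingolipid synthesis, was at 321, 210, 270 and 362 and then at 695, 661, 640 and 828 (1.30 ± 0.19, adjusted p = 2.75e-05). Elovl7, another fatty acid elongase, rose by 1.20 ± 0.16. All 14 were also called with either other scaling and without each of the 8 libraries in turn.

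Several of the other largest rises were epidermal genes. Crnn, cornulin of the cornified layer, was at 45, 42, 51 and 77 and then at 350, 658, 511 and 438 (3.17 ± 0.71, adjusted p = 0.0014). Slurp1 and Slurp2, secreted keratinocyte proteins of thick skin, rose by 1.97 ± 0.30 and 2.11 ± 0.28. Ereg, a ligand of the epidermal growth factor receptor, was at 521, 326, 372 and 693 and then at 1615, 2273, 2365 and 2249 (2.20 ± 0.26, adjusted p = 1.9e-06). Serpina3b, a serine protease inhibitor, was at 6, 5, 11 and 7 and then at 15, 22, 863 and 305 (3.64 ± 1.07, adjusted p = 0.011). Its rise came from 2 libraries in the main, and without replicate 3 of 21 days it was 2.60 (adjusted p = 0.0551). Capn6, a calpain-like protein without protease activity that developing tissues make, was the other way, at 144, 247, 315 and 285 and then at 38, 13, 31 and 24 (-3.22 ± 0.32, adjusted p = 2.39e-07).

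Wound keratins and their companions did not shift as a list, with 1 of 10 lower (10%) and 0 higher (median 0.09), against 21.5% and 13.3% over all genes. The member called, Sprr2d, a cornified envelope protein of stressed epidermis, was at 127, 132, 72 and 13 and then at 8, 27, 13 and 16 (-2.05 ± 0.69, adjusted p = 0.0243). It was not called without replicate 1, 2 or 3 of 14 days or replicate 1 of 21 days (-1.70 to -1.99, adjusted p of 0.0515 to 0.0858).

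Nail keratins were uneven. None of 15 hard keratin and nail matrix genes was called (median 0.44), or 1 higher without replicate 2 of 21 days, and Krt31, a hard keratin, was at 28688, 48984, 32828 and 52067 and then at 51524, 47099, 33842 and 103771 (0.46 ± 0.41, adjusted p = 0.42). All 38 keratin-associated protein genes, whose products embed the hard keratins, had positive changes with a median of 1.04. Of these, 4 (10.5%) were called higher, against 13.3% over all genes. The summed value of the 38 was 148601, 245959, 241653 and 293616 at 14 days and 362076, 346244, 283572 and 1131872 at 21 days, so replicate 4 of 21 days stood far above the rest. Krtap24-1 was at 27, 20, 21 and 12 and then at 42, 53, 56 and 364 (2.04 ± 0.75, adjusted p = 0.0386). Without replicate 4 of 21 days its change was 1.33 (adjusted p = 0.178), that of Krtap26-1 was 1.43 (adjusted p = 0.122) in place of 1.86, and that of Krtap6-1 was 0.84 (adjusted p = 0.236) in place of 1.48. Each of the 3 also lost its call without at least 3 other libraries: Krtap24-1 without replicates 2, 3 and 4 of 14 days, Krtap26-1 without replicates 1, 2 and 4 of 14 days and replicate 1 of 21 days, and Krtap6-1 without any of 14 days and without replicates 1 and 2 of 21 days. The count of called genes was 0 without replicate 4 of 14 days, 1 without replicate 1, 2 or 3 of 14 days or replicate 1 or 4 of 21 days, 2 without replicate 2 of 21 days and 8 without replicate 3 of 21 days. With sample quality weights it was 7 and with the replicate number as a block 19. These genes are near copies of one another, so reads may be divided among them.

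Immediate early genes, which cells switch on within minutes of a stimulus, were higher for 13 of 17 members and lower for 0, and all 17 changes were positive (median 0.94). Fosb, a subunit of the AP-1 transcription factor (chromosome 7, 19302696 to 19310051), was at 290, 200, 344 and 174 and then at 1287, 786, 2568 and 1960 (2.62 ± 0.34, adjusted p = 4.58e-06). Fos, its relative, was at 446, 384, 408 and 430 and then at 869, 1491, 1158 and 1693 (3.03-fold higher, adjusted p = 0.00118). Atf3, a stress-induced repressor, rose by 1.61 ± 0.37. Dusp1, the phosphatase that switches off MAP kinases, was at 691, 959, 683 and 949 and then at 2145, 2446, 2336 and 2673 (1.56 ± 0.16). None of these 4 genes overlapped between the days. Jun (0.27), Junb (0.35), Jund (0.14) and Myc (0.35) were not called.

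**Figure D3:**
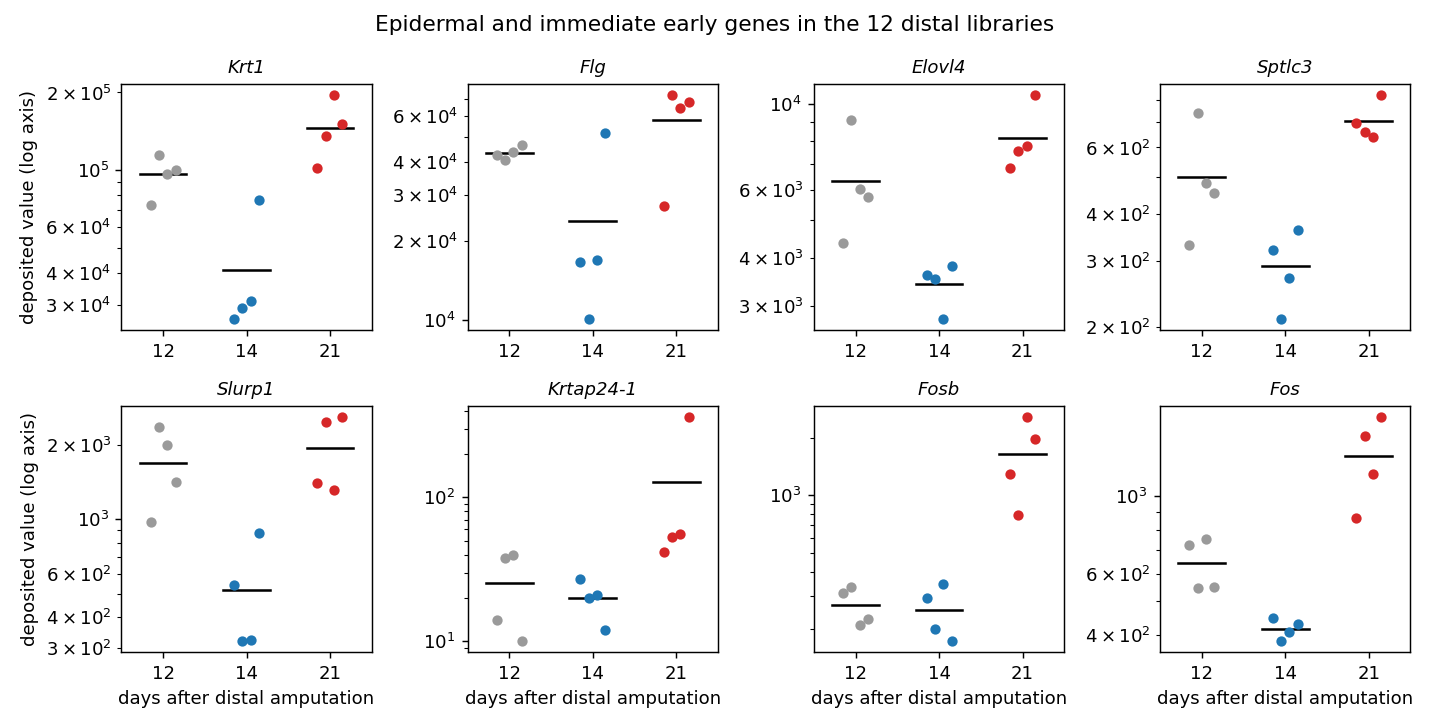
Deposited values on a log axis of 6 epidermal and nail genes and 2 immediate early genes in the 12 distal libraries, by days after amputation; points are libraries (grey 12, blue 14, red 21 days) and bars are means. Values at 21 days lie above those at 14 days for Krt1, Elovl4, Sptlc3 and Slurp1, Flg overlaps between 14 and 21 days, and one library at 21 days holds Krtap24-1 at 364.

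Lists of signalling genes had medians closer to 0. Of 25 Wnt ligands and secreted modulators, 10 (40%) were lower and 2 (8%) higher, against 21.5% and 13.3% over all genes (median -0.47). The count lower was only 6 without replicate 4 of 14 days or replicate 3 of 21 days. The count of those higher was 1 without replicate 2 or 3 of 14 days or replicate 2 or 4 of 21 days, and with only the compared groups fitted. Wif1, a Wnt-binding inhibitor, was at 799, 865, 1064 and 1133 and then at 267, 232, 183 and 350 (-1.92 ± 0.34, adjusted p = 0.000177). Sfrp4, another decoy, fell by 1.91 ± 0.38. Rspo3, which amplifies Wnt signals, was at 37 to 46 and then at 7 to 20 (-1.64 ± 0.40). Wnt4, a ligand that epithelia also make, was at 1227, 1231, 1509 and 1332 and then at 2061, 1795, 2072 and 2034 (0.59 ± 0.10). Of 14 Wnt effectors and targets, 1 was lower, Nkd2 (-0.60), and 1 higher, Znrf3 (0.34), with a median of -0.06. Each is 7.14% of the list, against 21.5% lower and 13.3% higher over all genes. Lef1, a nuclear effector of the pathway, was at 136, 166, 265 and 349 and then at 209, 237, 137 and 282 and was not called (-0.03 ± 0.44, adjusted p = 0.965). The sign of that value turned with median-ratio factors (0.02) and without replicate 3 (0.07) or 4 (0.20) of 14 days or replicate 3 of 21 days (0.17).

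Of 26 BMP pathway genes, 8 (30.8%, against 21.5% over all genes) were lower (median -0.31). The gene called higher was Id4 (0.59, not called without replicate 2 of 14 days). The count lower was 5 without replicate 4 of 14 days. The count higher was 2 without replicate 3 of 21 days and 3 with median-ratio factors. Bmp5, a bone morphogenetic protein of limb mesenchyme, was at 366, 388, 406 and 417 and then at 146, 185, 116 and 247 (-1.23 ± 0.27, adjusted p = 0.00124). The BMP antagonist Chrdl1 (-1.27 ± 0.39) was not called without replicate 2 of 14 days (-1.10, adjusted p = 0.0501) or replicate 3 of 21 days (-0.82, adjusted p = 0.0685), and Bmp3, a ligand that opposes bone formation, fell by 1.30 ± 0.38. Of 12 hedgehog genes, 8 were lower and 0 higher (median -0.32), with 5 lower under median-ratio factors, without replicate 1 or 2 of 14 days or without replicate 3 of 21 days. Gli1, a direct readout of the pathway, was at 139, 153, 131 and 159 and then at 106, 81, 63 and 72 (-0.87 ± 0.26, adjusted p = 0.0117). It overlaps Arhgap9 on the opposite strand, which was at 36 to 57 and then at 16 to 25 (-1.05, adjusted p = 0.000374), and reads of the pair may not be told apart. Dhh, a ligand of Schwann and endothelial cells (-0.96 ± 0.37, adjusted p = 0.0479), held without only replicate 3 of 14 days and replicates 2 and 4 of 21 days; without the others its adjusted p was 0.051 to 0.189, and it was 0.0556 with median-ratio factors and 0.0804 with sample quality weights.

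In the IGF axis 8 of 13 genes were lower and 1, Igfbp2 (0.57), higher (median -0.47), with 5 lower under median-ratio factors or without replicate 1 of 14 days. Pappa, the protease that frees IGF from its binding proteins, was at 876, 1295, 1578 and 1487 and then at 515, 469, 645 and 585 (-1.22 ± 0.18, adjusted p = 2.25e-05), and the clearing receptor Igf2r fell by 0.67 ± 0.10. Igf1 (-0.69 ± 0.26, adjusted p = 0.0429) was not called without replicate 1, 2 or 4 of 14 days or replicate 3 or 4 of 21 days (-0.47 to -0.71, adjusted p of 0.0649 to 0.175), nor with median-ratio factors (adjusted p = 0.0554) or sample quality weights (adjusted p = 0.0667). FGF genes were mixed, with 4 of 16 lower (25%) and 3 higher (18.8%), against 21.5% and 13.3% over all genes. The count lower was 2 without replicate 4 of 14 days or without replicate 1 or 3 of 21 days. With median-ratio factors 5 were higher. Fgfr1, the receptor of mesenchyme, was at 3547, 4268, 4619 and 4110 and then at 2188, 2076, 2384 and 2132 (-0.91 ± 0.10, adjusted p = 6.58e-07), and its antisense gene Gm16159 fell by 0.52. Fgf7, a mesenchymal factor for epithelia, fell by 1.37 ± 0.27, and Fgf22, an epidermal one that overlaps Rnf126 (0.20, called) on the opposite strand, rose by 0.85 ± 0.22.

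Of 14 Notch genes, 4 (28.6%, against 21.5% over all genes) were lower and 0 higher, and 2 were lower without replicate 3 of 21 days. The endothelial ligand and receptor Dll4 (-1.43 ± 0.21) and Notch4 (-1.29 ± 0.16) both fell. Hey2, a target in vessels (-1.06 ± 0.33), was not called without replicate 3 of 21 days (-0.71, adjusted p = 0.0757). Retinoic acid genes were split, with 3 of 13 lower and 3 higher, or 23.1% each, against 21.5% and 13.3% over all genes. The count higher was 1 without replicate 2 of 14 days or replicate 4 of 21 days, and 5 with median-ratio factors. Rbp4, a retinol carrier, fell by 1.79 ± 0.52. Cyp26a1, which degrades retinoic acid, was at 43, 42, 29 and 61 and then at 105, 109, 76 and 99 (1.17 ± 0.42, adjusted p = 0.033). Although its days did not overlap, the call held without only replicate 4 of 14 days and replicate 3 of 21 days and otherwise had an adjusted p of 0.0565 to 0.0992.

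Of 13 Schwann cell and nerve genes, 3 were lower (23.1%) and 2 higher (15.4%), against 21.5% and 13.3% over all genes. The count lower was 1 without replicate 4 of 14 days, and the count higher was 1 without replicate 3 of 14 days. Nrn1, a neuritin of growing axons, was at 92 to 120 and then at 34 to 56 (-1.31 ± 0.25). The glial receptor gene Gfra3 (-0.94 ± 0.29) was not called without replicate 4 of 14 days (-0.82, adjusted p = 0.0523) or replicate 1 of 21 days (-0.66, adjusted p = 0.077). Mbp, a Schwann cell gene, was among those called higher, at 598 to 1006 and then at 995 to 1370, so its days overlapped. Its call ended without replicate 3 of 14 days (0.38, adjusted p = 0.0501).

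Metabolic genes moved little. In sterol and fatty acid synthesis 5 of 20 genes (25%, against 13.3% over all genes) were higher and 0 lower (median 0.19). Dhcr7, of the last step to cholesterol, was at 748, 727, 695 and 950 and then at 964, 1501, 1129 and 1431 (0.68 ± 0.15, adjusted p = 0.00102). Msmo1 (0.62 ± 0.22), of the same pathway, lost its call without replicate 3 or 4 of 14 days or replicate 1, 3 or 4 of 21 days and with table totals (adjusted p of 0.0524 to 0.103). The count of sterol genes higher was 3 with table totals or without replicate 1 of 21 days and 2 without replicate 3 or 4 of 14 days or replicate 4 of 21 days. Of 19 glycolysis and hypoxia genes, 2 were lower and 2 higher, or 10.5% each, against 21.5% and 13.3% over all genes. The count lower was 1 under median-ratio factors and without replicate 2 of 14 days or replicate 1 or 3 of 21 days. P4ha1, a collagen hydroxylase, fell by 0.86 ± 0.14, while Pdk1 and Ndrg1, hypoxia-responsive genes, rose by 0.59 ± 0.14 and 0.39 ± 0.10.

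Of 17 ribosome biogenesis genes, 0 were lower and 3 (17.6%, against 13.3% over all genes) were higher by small amounts. They were the nucleolar protein genes Nop58 (0.22 ± 0.08) and Pes1 (0.17 ± 0.06) and the RNA polymerase I subunit gene Polr1b (0.19 ± 0.06). None of the 3 was called with table totals (0.13 to 0.18, adjusted p of 0.102 to 0.251). Without replicate 4 of 21 days the count was 0, and it was 1 without replicate 3 or 4 of 14 days or replicate 1 of 21 days. Pes1 held without only replicate 1 of 14 days and replicate 3 of 21 days. Mitochondrial transcripts, 12 in all, were not called (median -0.44), and 5 were lower without replicate 3 of 21 days.

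**Figure D4:**
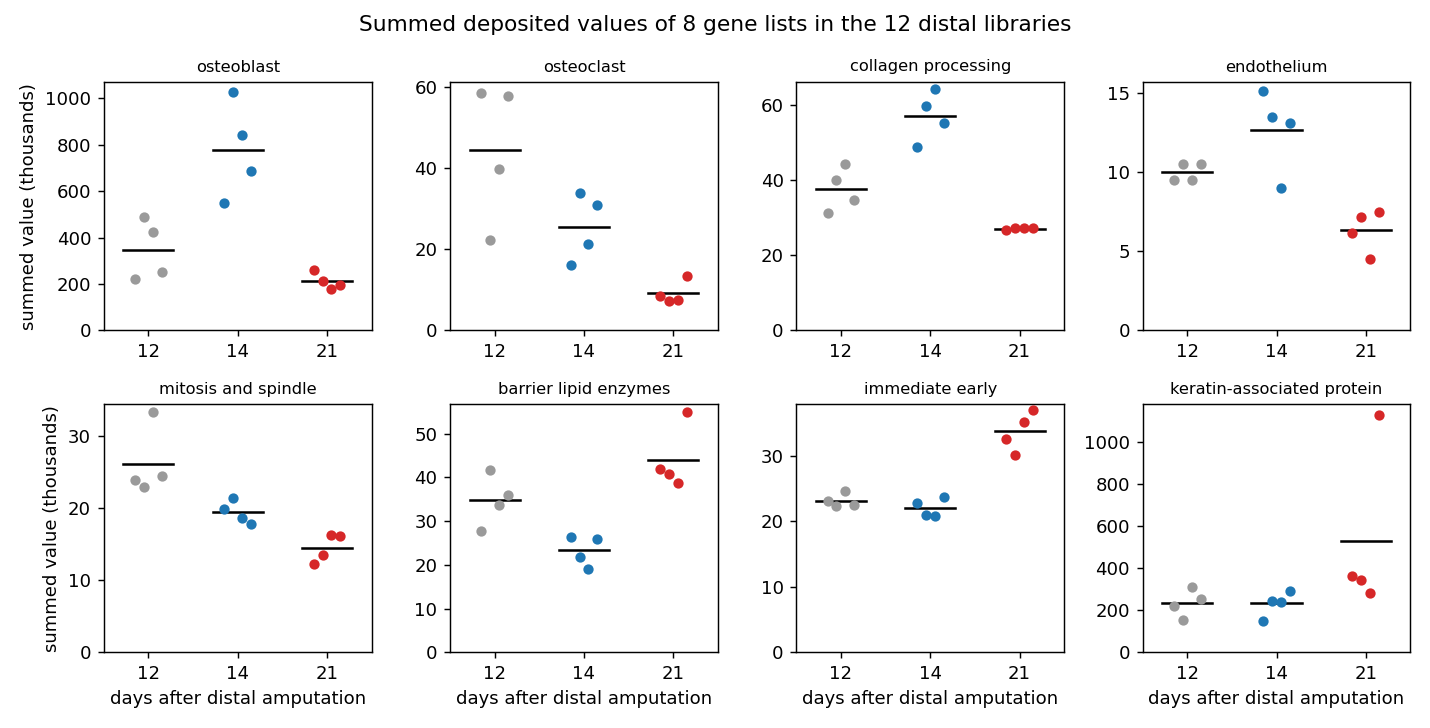
Summed deposited values (the axis gives its scale) of the measured members of 8 gene lists in the 12 distal libraries, by days after amputation; points are libraries (grey 12, blue 14, red 21 days) and bars are means. Osteoblast sums at 14 days (550049 to 1027150) lie above those of the other days, and barrier lipid sums at 14 days (19092 to 26447) lie below them. Much of the osteoblast sum is Col1a1, which is a fibroblast gene as well.

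The 12-day libraries place the interval in time. They are given as values only, since both steps share the libraries of 14 days. The summed osteoblast value was 220490 to 486542 at 12 days, 550049 to 1027150 at 14 days and 178806 to 257777 at 21 days, so 14 days was the highest of the 3. Much of that sum is Col1a1, at 243732 to 497036 at 14 days and 79031 to 113996 at 21 days, which is a fibroblast gene as well. The sum therefore does not follow osteoblasts alone. The limb patterning sum was also highest at 14 days, at 5252 to 7709, 10496 to 11573 and 5853 to 7368. The osteoclast sum was 22183 to 58671 at 12 days, 16005 to 33900 at 14 days and 7221 to 13355 at 21 days, and its neighbouring days overlapped only between 12 and 14 days. For the mitotic list the sums were 22857 to 33257, 17692 to 21369 and 12214 to 16209, without overlap between any 2 days. Barrier lipid genes summed to 27846 to 41661, 19092 to 26447 and 38785 to 54929, with 14 days the lowest. Epidermal genes summed to 737295 to 855702, 311752 to 566197 and 497597 to 880374. Their sums at 12 days lay above those at 14 days and within the range of 21 days. Immediate early genes were level at 22238 to 24535 and 20737 to 23666 before the rise to 30131 to 36984. Col10a1 was at 49, 95, 45 and 77 at 12 days.

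To show where the distal change differed from that after the proximal amputation, the same interval was tested there and the difference between the 2 changes was tested directly. After proximal amputation 1876 genes (12.5%) were called higher and 2452 (16.3%) lower, or 28.7% in all. Of the 1996 genes higher after distal amputation, 836 were also called higher after proximal amputation, and of the 3238 lower, 1683 were also called lower. The difference itself passed for 286 genes (1.9%), 151 (1%) more positive and 135 (0.897%) more negative after distal amputation, and for 2924 at an unadjusted p under 0.05. Of these 286, 205 were called in the distal comparison. These counts were unstable. They were 91 and 650 with table totals and 266 positive with median-ratio factors. Without replicate 2 of distal 14 days they were 62 and 43, and without replicate 1 of distal 21 days 67 and 56.

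Most bone and matrix genes fell after both amputations. The proximal median was -1.49 for osteoblast genes, of which 14 were lower, and -1.10 for collagen processing genes, of which 17 were lower. No member of either list had a difference that passed. For osteoclast genes the proximal median was -0.76 with 4 of 14 lower, but no difference passed, with a median of -0.92. The immediate early genes rose in both, with 12 of 17 higher after proximal amputation and 0 differences.

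Col10a1 differed the most among genes called in the distal comparison. After proximal amputation it was at 105, 606, 135 and 440 at 14 days and at 535, 196, 196 and 1340 at 21 days, a change of 0.71, and the difference was 4.48 ± 0.92 (adjusted p = 0.0175). The difference also passed under every alternative run and without each of the 16 libraries. Hemgn, a nuclear protein of blood precursors, was at 11, 14, 7 and 13 and then at 43, 36, 26 and 60 after distal amputation and was at 20, 37, 25 and 18 and then at 16, 4, 22 and 11 after proximal amputation (difference 2.78 ± 0.55, adjusted p = 0.0152). The red cell list had a median change of 0.38 after distal and -3.10 after proximal amputation and a median difference of 3.57, with 0 of 6 members called in any of these. Its summed value after proximal amputation was 619 to 9109 at 14 days and 115 to 2292 at 21 days, and its part in the Hemgn result was not tested. Cryba4, a crystallin gene, was at 84 to 118 and then at 186 to 557 after distal amputation (difference 2.47 ± 0.51, adjusted p = 0.0174). Gm37797, an annotated gene without a named product, was at 7901 to 24824 and then at 26635 to 81764 (difference 2.49 ± 0.62, adjusted p = 0.042). The call of Gm37797 held without replicate 4 of distal 14 days, 2 and 3 of distal 21 days, 1 of proximal 14 days, and 1 and 4 of proximal 21 days; without each of the others its adjusted p was 0.0545 to 0.0824, and with the low-spread covariate it was 0.0548. Krtap6-1 had the difference 2.71 ± 0.81 and was not called (adjusted p = 0.0785), except without replicate 3 of distal 21 days (adjusted p = 0.0452) or replicate 1 of proximal 21 days (adjusted p = 0.0348).

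Among differences in the other direction, Slpi (-3.87 ± 0.85, adjusted p = 0.0257) and Lcn2 (-3.28 ± 0.78, adjusted p = 0.0339) passed. Slpi was at 104, 68, 79 and 156 and then at 204, 212, 148 and 45 after proximal amputation. The Slpi difference did not pass without replicate 2 of distal 14 days (-3.26, adjusted p = 0.051) or replicate 3 of proximal 14 days (-3.77, adjusted p = 0.0513). That of Lcn2 did not pass without replicate 1 or 2 of distal 14 days, 3 or 4 of distal 21 days, 3 of proximal 14 days, or 2 or 3 of proximal 21 days (adjusted p of 0.0501 to 0.0751), nor with a pseudocount of 8 (-2.37, adjusted p = 0.0507) or only the compared groups fitted (adjusted p = 0.0719). S100a9 (-4.21 ± 1.70, adjusted p = 0.172), S100a8 (-3.26 ± 1.35, adjusted p = 0.182) and Sprr2d (-3.00 ± 0.97, adjusted p = 0.0965) did not pass, although S100a9 (adjusted p = 0.0424) and Sprr2d (adjusted p = 0.0328) did without replicate 4 of distal 14 days.

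Mitotic genes parted by level. After proximal amputation the list had a median of 0.21, with 2 of 24 members higher (Nusap1 and Anln) and 0 lower, against 18 lower after distal amputation. Over all genes 12.5% were called higher after proximal amputation, a share that 2 of 24 does not exceed. The difference passed for 6 members, all more negative after distal amputation: Ccna2 (-1.01 ± 0.21, adjusted p = 0.0174), Kif20a (-0.94 ± 0.18, adjusted p = 0.0139), Bub1 (-0.89 ± 0.20), Ccnb2 (-0.89 ± 0.21), Cdk1 (-0.84 ± 0.18, adjusted p = 0.0201) and Anln (-0.76 ± 0.17). They are a cyclin of S phase and mitosis, a motor of cell division, a checkpoint kinase, a mitotic cyclin, its kinase and a scaffold of the dividing cell cortex, and they are 25.0% of the list against 0.897% of all genes. Those of Ccna2, Kif20a and Cdk1 passed without each of the 16 libraries and with either other scaling. Bub1 did not pass without replicate 1 or 2 of distal 14 days, 1 of distal 21 days, 3 of proximal 14 days, or 3 or 4 of proximal 21 days (adjusted p of 0.0503 to 0.0608). Ccnb2 did not without replicate 2 or 3 of distal 14 days, 1 or 2 of distal 21 days, 3 or 4 of proximal 14 days, or 3 or 4 of proximal 21 days (0.0544 to 0.0735). Anln did not without replicate 2 of distal 14 days, 1 or 2 of distal 21 days, or 3 of proximal 14 days (0.0503 to 0.0598).

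**Figure D5:**
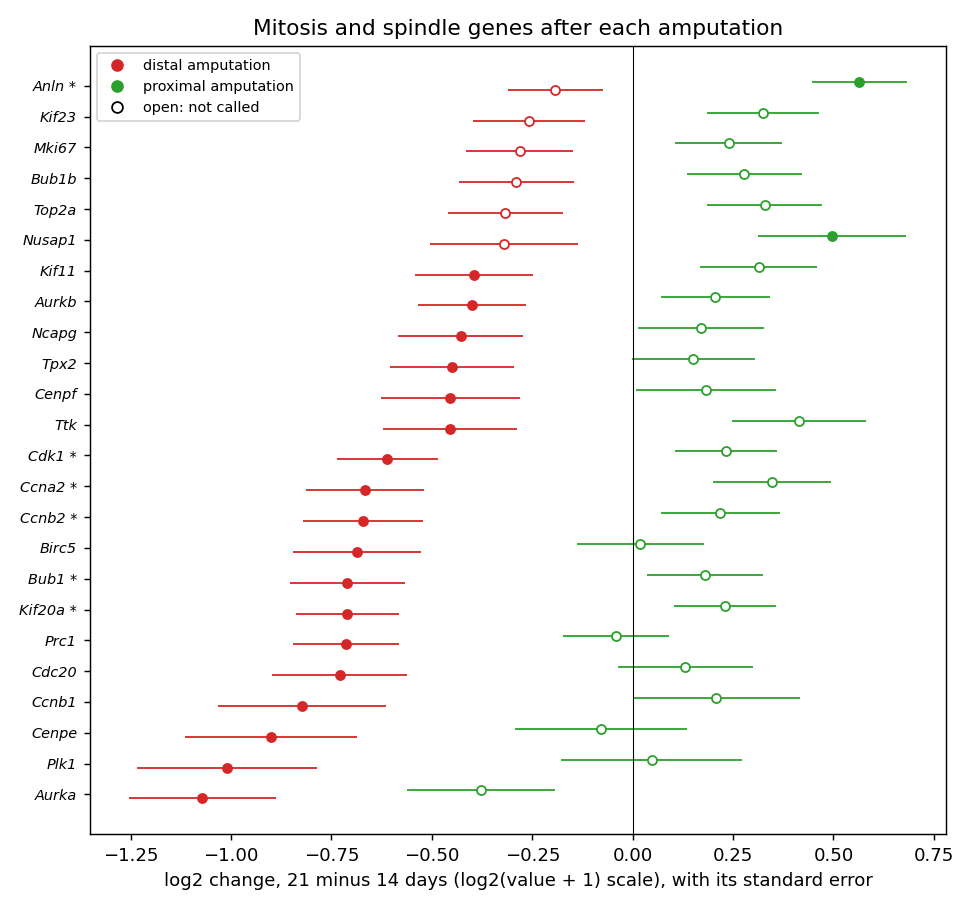
Log2 change from 14 to 21 days of the 24 measured mitosis and spindle genes after distal (red) and proximal (green) amputation, with standard errors; open symbols were not called and a star marks the 6 genes whose difference between levels passed. Every distal change lies left of 0, and the proximal changes lie at or right of 0 except for Aurka, Cenpe and Prc1.

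For a few signalling and patterning genes the proximal fall was the larger. Among the lists, the difference passed for the BMP feedback genes Bambi (0.22 distal and -1.22 proximal, difference 1.44 ± 0.25, adjusted p = 0.00749) and Smad6 (-0.20 and -0.92, difference 0.72 ± 0.14, adjusted p = 0.0166). It passed for the tendon regulator Scx (-0.58 and -1.42, difference 0.84 ± 0.14, adjusted p = 0.00715) and the homeobox gene Dlx6 (-0.14 and -1.09, difference 0.96 ± 0.21, adjusted p = 0.022). In the IGF axis it passed for Igfbp5 (-0.47 and -1.31), Igfbp7 (-0.32 and -0.98) and the imprinted transcript H19 (-0.70 and -2.54). Cyp26a1 rose after distal and fell after proximal amputation (1.17 and -1.23, difference 2.40 ± 0.59, adjusted p = 0.0387). Its difference held without replicate 4 of distal 14 days, 3 of distal 21 days, 4 of proximal 14 days, and 1 and 3 of proximal 21 days, and without the others its adjusted p was 0.0508 to 0.0809. It was 0.0516 with only the compared groups fitted and 0.0535 with the low-spread covariate. Ndrg1 also rose and fell (0.39 and -0.38, difference 0.77 ± 0.14, adjusted p = 0.0113), and this passed without each library. Pdk1 differed by 0.82 ± 0.20 (adjusted p = 0.0384), which held without replicate 1 of distal 14 days, 3 of distal 21 days, 1 of proximal 14 days, and 1 and 3 of proximal 21 days and without the others had an adjusted p of 0.0576 to 0.0723. It did not pass with table totals (0.67, adjusted p = 0.0732), with only the compared groups fitted (adjusted p = 0.0651) or with the low-spread covariate (adjusted p = 0.0524).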

How the data were processed

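Per the labels, total RNA of digit tips was depleted of ribosomal RNA before library preparation. The submitters' processing notes list STAR 2.5.4b, cutadapt, Subread with featureCounts 1.6.3, and mm10. The deposited values are whole numbers treated as a score: over 9650 genes with every value above 100, libraries spread along their tightest direction by 0.00674 (natural log), where Poisson sampling would give 0.0453, so they are not raw counts, and p-values are likely too small.

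With limma 3.58.1 in R 4.3.3, log2(value + 1) was fitted over 24 libraries with 6 group means (lmFit, eBayes with trend; 18 residual and 3.91 prior degrees of freedom). Adjusted p-values are Benjamini-Hochberg over all genes. On simulated data, 83.4% of 2-fold and 97.3% of 4-fold changes were recovered in 200 of 15055 genes, and 4.50% of calls were false. The simulated scatter was independent between genes and few genes changed, whereas 34.8% of genes were called in the data. The simulated shares therefore do not give the error rate of the calls reported here.

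Gene lists, alternatives and the rule for names were chosen with earlier results of these data known. Named were the 8 largest rises and falls with a mean of at least 100 and no overlap, up to 3 called members of each list with at least 3, a panel of 15 genes, and the 5 largest differences between levels in each direction. Other names were chosen after their values were seen. Alternatives were 2 scalings, pseudocounts of 0.5 and 8, filters, sample weights, the replicate block, only the compared groups, each library left out and, added after the data were seen, the low-spread direction as a covariate. Positions are from GENCODE and upstream sequences from RefSeq (GRCm38.p6). A few genes are not reported here. Of 126 genes chosen by the rule, 16 overlap another gene of the table.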

Additional observations from a re-analysis of the deposited data

Results flagged for a closer look

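In 14 of 244 groups of 4 libraries of named genes, one library lay far from the other 3 by Dixon's criterion; chance gives about 1 in 20. At 14 days these were Ccr2 in replicate 1 (300), Itgam in replicate 3 (177), and Csf1 (576), Hoxa11 (133) and Krt1 (76603) in replicate 4. At 21 days they were Des (3), Ereg (1615) and Flg (27210) in replicate 1, Slpi (55) in replicate 2, and Ccne1 (79), Cxcl5 (5), Krtap24-1 (364), Msx1 (646) and Polr1b (704) in replicate 4.

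Among 122 named genes, the change from 14 to 21 days differed between distal and proximal amputation, by the test of the difference, for 9. On the log2 scale the distal change was the more positive for Col10a1 (4.48), Hemgn (2.78), Gm37797 (2.49), Cryba4 (2.47), Cyp26a1 (2.40), Pdk1 (0.82) and Ndrg1 (0.77), and the more negative for Slpi (-3.87) and Lcn2 (-3.28).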

How the results depend on the processing

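With a library left out, the genes called after distal amputation numbered 1578 to 1932 higher (1996 with all) and 2803 to 2995 lower (3238), and under all other alternatives both counts stayed within 1.5 times. With table totals, proximal calls became 3015 higher and 1563 lower, differences between levels 91 positive and 650 negative, and genes higher without overlap 1126. Median-ratio factors gave 266 positive differences, fitting only the compared groups 93 positive and 71 negative, and the low-spread covariate 80 negative. With a library left out, differences ranged from 62 to 224 positive (151 with all) and from 43 to 236 negative (135); the cause was not tested.

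No label says that the replicate numbers pair the samples. Same-numbered libraries of the 2 days correlated at 0.09, -0.12, 0.23 and 0.12, and differently numbered ones at -0.22 to 0.15. These values are too few to show or exclude a pairing. With the replicate block 2070 genes were higher and 3288 lower, and of the named genes Krtap24-1, Matn3 and Mgp were no longer called. Fitting only the compared groups ended the calls of Chrdl1, Dhh, Hrnr, Igf1, Il33, Krtap6-1, Nop58, Pes1, Polr1b and S100a8 (adjusted p of 0.0519 to 0.119). The uncalled value of Lef1 turned sign in 4 alternatives (0.0235 with median-ratio factors, and 0.07, 0.20 and 0.17 with a library left out, where the range was -0.25 to 0.20). Of the 126 named genes' values under alternatives, 2119 kept their direction and call, 128 kept the direction but lost the call and 1 gained it. Depth is unknown, so no detection limit was computed.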
